A study of Mus musculus with 6 samples.

Results

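Distal tubule calcium and magnesium handling was followed through 10 genes: Slc12a3, Pvalb, Trpm6, Cnnm2, Trpv5, Calb1, S100g, Slc8a1, Atp2b1 and Klk1. They were picked by symbol for where they act in the nephron, with earlier results of these data known. All 10 were found among the 54146 genes of the count files. All 10 also passed the filter on low counts, which left 17308 genes for testing. The RNA came from whole kidneys of B6C3F1/J mice at 12 weeks (postnatal day 84), with 3 libraries labelled Tfam f/f and 3 labelled KspCre Tfam f/f. They are called control-labelled and Cre-labelled libraries below. Mice of both groups carry a floxed Tfam gene, whose product packages mitochondrial DNA and starts its transcription. Only the second group is labelled as also carrying Cre, driven by the promoter of kidney-specific cadherin, which is active in tubule epithelium and not in the other cells of the organ. A whole kidney therefore mixes cells that can recombine with cells that cannot.

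The distal convoluted tubule and the connecting tubule set the final amounts of calcium and magnesium in urine. In the distal convoluted tubule, salt enters through the thiazide-sensitive cotransporter encoded by Slc12a3, and magnesium enters through the TRPM6 channel. Calcium enters through the TRPV5 channel, is carried across the cell by the calbindins and leaves through a sodium-calcium exchanger and a calcium pump on the blood side. Parathyroid hormone, active vitamin D, klotho and epidermal growth factor are known to act on these steps.

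The stretches before the transcript starts are shown for Slc12a3 and S100g, higher in the Cre-labelled libraries (described further on), and for Trpv5, lower there. They are 250 bases each from RefSeq on GRCm38.p6 (mm10), read 5′ to 3′ on the gene's strand and ending at the base before the start. Capitals mark TATAAA on either strand.

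Slc12a3 (chr8:94328958-94329207, plus strand): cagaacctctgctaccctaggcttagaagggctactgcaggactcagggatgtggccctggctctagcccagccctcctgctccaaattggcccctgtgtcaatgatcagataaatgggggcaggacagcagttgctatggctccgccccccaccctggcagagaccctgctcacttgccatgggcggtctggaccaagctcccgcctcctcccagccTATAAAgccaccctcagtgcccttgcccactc

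S100g (chrX:162964600-162964849, minus strand): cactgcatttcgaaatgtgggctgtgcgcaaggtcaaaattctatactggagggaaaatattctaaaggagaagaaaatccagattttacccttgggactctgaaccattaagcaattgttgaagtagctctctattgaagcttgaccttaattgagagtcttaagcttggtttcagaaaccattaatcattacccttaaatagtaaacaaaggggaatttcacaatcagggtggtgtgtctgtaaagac

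Trpv5 (chr6:41680724-41680973, minus strand): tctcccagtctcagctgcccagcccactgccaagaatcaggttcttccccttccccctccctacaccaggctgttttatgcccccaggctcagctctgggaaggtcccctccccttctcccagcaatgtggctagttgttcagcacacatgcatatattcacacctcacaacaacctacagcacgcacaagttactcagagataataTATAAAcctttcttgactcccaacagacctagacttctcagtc

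The letters TATAAA begin 32 bases before the start in Slc12a3, which was higher in the Cre-labelled libraries, and 43 bases before it in Trpv5, which was lower there. In S100g they begin at the start itself, just outside the stretch shown. RefSeq windows reaching 250 bases before and 50 after the start were available for 9 of the 10 genes (11 windows). For Trpm6 and Slc8a1, the bases after that start matched the beginning of no GENCODE M21 transcript of the gene. Of the 9 genes, 3 held TATAAA (those shown above), against 13.6% of all 32851 windows. The letters TGACG, the core of a cAMP response element, were found on either strand in 1 of the 9, Atp2b1 (5 bases after the start), against 20.8% of all windows. The vitamin D receptor direct repeat was in 0 of the 9 against 0.0396% of all.

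Total counts over genes were 19024208 to 34821537 in the control-labelled libraries and 30348281 to 48899266 in the Cre-labelled ones. The targeted gene went against the labels. Tfam stood at 30.3, 33.6 and 23.2 normalized CPM (counts scaled to a common library size) in control-labelled replicates 1, 2 and 3 and at 63.1, 63.5 and 61.4 in the Cre-labelled ones. The names given to the deposited files also run against the labels, with the letters WT on those of the 3 Cre-labelled libraries. The groups were kept as labelled. Every direction below is therefore between labels and not between known genotypes. Higher and lower refer to the Cre-labelled libraries relative to the others. The groups also differed widely in the rest of the transcriptome. By edgeR's quasi-likelihood test with Benjamini-Hochberg adjustment over all 17308 genes, 46.2% of genes were called at 0.05, 21.3% as higher and 24.9% as lower. Of the calls, 46.1% were higher with TMM scaling, 39.5% with upper-quartile scaling and 16.5% with scaling by total counts alone.

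Of the 10 genes, 6 were higher (Pvalb, Klk1, S100g, Calb1, Slc12a3 and Cnnm2), 1 was lower (Trpv5), and Trpm6, Slc8a1 and Atp2b1 did not pass. The 6 in 10 stand against the 21.3% called higher among all genes, and the 1 in 10 against the 24.9% called lower. The 10 were chosen with earlier results of these data known, so these shares are given without a test. The median log2 fold change of the 10 was 0.75 and that of all tested genes -0.03. In a whole-kidney library, fewer cells of a type and less RNA per cell cannot be told apart. The count of 6 changed when single libraries were left out. It was 3 (Pvalb, S100g and Klk1) without control-labelled replicate 1, without Cre-labelled replicate 1 or without its replicate 2. Calls among all genes also fell in these fits, from 3690 higher to 2321 and 2276 without Cre-labelled replicates 1 and 2. The drop was therefore not particular to the 10 genes. In the 3 fits, log2 fold changes were 0.81, 0.87 and 0.83 for Slc12a3 (0.88 with all libraries). They were 1.13, 0.98 and 1.01 for Calb1 (1.04) and 0.67, 0.59 and 0.58 for Cnnm2 (0.62). Trpv5 stayed called in each of the 6 fits that left out 1 library. Scaling by total counts alone, which shifted the median of all genes by -0.43, gave 3 higher and 2 lower.

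**Figure D1:**
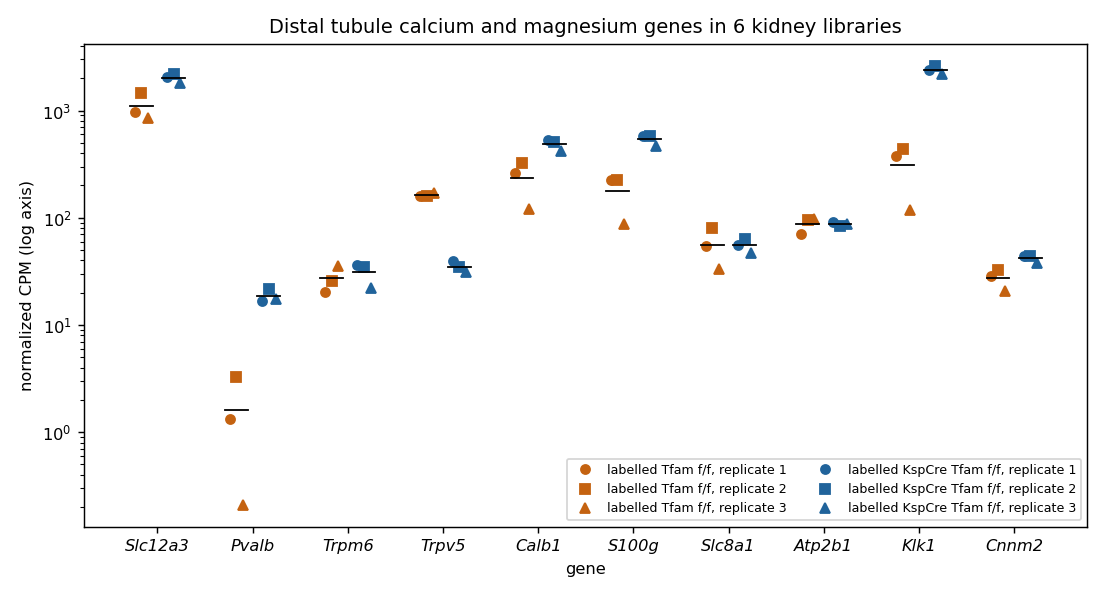
Normalized CPM (log axis) of the 10 genes in each of the 6 libraries, with 1 symbol per replicate and a line at each group's mean. The groups are fully apart for Slc12a3, Pvalb, Trpv5, Calb1, S100g, Klk1 and Cnnm2, and only Trpv5 among these is lower in the Cre-labelled libraries.

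The salt cotransporter of the distal convoluted tubule was moderately higher. Slc12a3 (chromosome 8, 94329201 to 94366214) had 979, 1459 and 859 normalized CPM in control-labelled replicates 1, 2 and 3, and 2076, 2178 and 1807 in the Cre-labelled ones. The groups did not overlap, and the lowest library of the second group lay above the highest of the first. The means were 1099 ± 318 and 2020.4 ± 192 (SD, n = 3 each). This is a 1.84-fold difference (log2 fold change 0.88, SE 0.26, edgeR adjusted p = 0.0267). The call was lost without control-labelled replicate 1 (adjusted p = 0.106) and without Cre-labelled replicate 1, 2 or 3 (0.0859, 0.0943 and 0.0631). It was also lost with total-count scaling (0.0975). The adjusted p lay between 0.000326 and 0.106 across the alternatives.

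Pvalb had the widest difference of the 10. It encodes parvalbumin, a calcium-binding protein that in the kidney marks the early distal convoluted tubule. Its normalized CPM (chromosome 15, 78191114 to 78206400) was 1.32, 3.29 and 0.210 in control-labelled replicates 1, 2 and 3, from 36, 125 and 5 counts. In the Cre-labelled replicates it was 16.7, 21.6 and 17.6, from 711, 893 and 461 counts. The highest library of the first group was below the lowest of the second by more than the spread within either. The fitted difference was 10.9-fold (log2 fold change 3.45, SE 0.63, edgeR adjusted p = 0.00481). It fell to 7.80-fold without control-labelled replicate 3, the library with 5 counts. It rose to 23.7-fold without control-labelled replicate 2, the library with most Pvalb in its group. Skeletal muscle also makes parvalbumin. Its markers Myh4, Actn3, Ckm, Acta1 and Tnnt3 summed to 0.316 to 0.881 CPM in the control-labelled libraries and to 0.556 to 1.36 CPM in the others, and 1 of the 5, Actn3, had enough counts to be tested and was higher. That call was lost in 4 of the 6 fits that left out a library (adjusted p up to 0.133) and with total-count scaling (0.0739). The part of muscle RNA in the Pvalb difference was not tested.

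The magnesium channel and the magnesium-related membrane protein of this segment went apart from Pvalb in size. Trpm6 (chromosome 19, 18749983 to 18892511), the apical channel through which magnesium enters, had 20.1, 26.0 and 35.3 normalized CPM in control-labelled replicates 1, 2 and 3 and 36.4, 34.5 and 22.0 in the Cre-labelled ones. The groups overlapped, with Cre-labelled replicate 3 below 2 libraries of the other group. The log2 fold change was 0.20 (SE 0.25, edgeR adjusted p = 0.54). Cnnm2 (chromosome 19, 46761596 to 46880192) encodes a basolateral protein whose mutations cause magnesium loss in people. Its normalized CPM was 28.9, 32.3 and 20.8 in control-labelled replicates 1, 2 and 3 and 43.8, 44.4 and 37.6 in the others, without overlap. It was 1.53-fold higher (log2 fold change 0.62, SE 0.16, edgeR adjusted p = 0.0185). That call was lost without control-labelled replicate 1 (0.0517) or Cre-labelled replicate 1 or 2 (0.0638 and 0.0671), and with total-count scaling (0.24). The adjusted p lay between 0.00572 and 0.24 across the alternatives.

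Calcium entry went the other way from calcium buffering. Trpv5 (chromosome 6, 41652173 to 41680769), the apical calcium channel of the late distal convoluted and connecting tubule, had 159, 158 and 169 normalized CPM in control-labelled replicates 1, 2 and 3. In the Cre-labelled replicates it had 39.3, 34.9 and 31.1, far below every library of the other group. The control-labelled libraries sat within 1.07-fold of each other, closer together than for any other of the 10 genes in that group, where the next narrowest, Atp2b1, spread over 1.38-fold. Trpv5 was 4.62-fold lower (log2 fold change -2.21, SE 0.12, edgeR adjusted p = 4.07e-05).

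Both calbindins were higher. Calb1 (chromosome 4, 15881264 to 15908064), the larger calbindin, had 262, 323 and 122 normalized CPM in control-labelled replicates 1, 2 and 3 and 530.0, 509 and 415 in the Cre-labelled ones. The groups did not overlap, and the difference was 2.06-fold (log2 fold change 1.04, SE 0.33, edgeR adjusted p = 0.0347). The call was lost without control-labelled replicate 1 (0.0852) and without Cre-labelled replicate 1, 2 or 3 (0.0995, 0.096 and 0.0629). It was also lost with no filter on low counts (0.0764) and with total-count scaling (0.0805). The adjusted p lay between 0.00377 and 0.0995 across the alternatives. S100g (chromosome X, 162961992 to 162964599), the smaller calbindin and a known target of vitamin D in the gut, had 225, 227 and 86.6 normalized CPM in control-labelled replicates 1, 2 and 3 and 573, 583 and 469.8 in the others. Again no library crossed over. S100g was 3.02-fold higher (log2 fold change 1.60, SE 0.35, edgeR adjusted p = 0.00919).

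The exit step showed no difference that passed. Slc8a1 (chromosome 17, 81373105 to 81738377), the basolateral sodium-calcium exchanger, had 54.2, 80.6 and 33.4 normalized CPM in control-labelled replicates 1, 2 and 3 and 55.8, 63.8 and 46.9 in the Cre-labelled ones. The libraries of the second group lie inside the range of the first. Its log2 fold change was -0.02 (SE 0.29, edgeR adjusted p = 0.968). Of its 18807 exon bases, 304 overlap genes on the other strand, and how the counting treated strand is not given. Atp2b1 (chromosome 10, 98914406 to 99026143), a plasma membrane calcium pump found in many cell types, had 70.1, 95.2 and 96.6 in control-labelled replicates 1, 2 and 3 and 90.7, 84.1 and 88.0 in the others. The groups overlapped, and the log2 fold change was 0.01 (SE 0.14, edgeR adjusted p = 0.978). The sign of both genes changed between alternatives.

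Klk1 encodes tissue kallikrein, a protease of the connecting tubule that is secreted into urine and is known to act on TRPV5. Klk1 (chromosome 7, 44225360 to 44229618) had 379, 439 and 119 normalized CPM in control-labelled replicates 1, 2 and 3 and 2410.5, 2609 and 2209.9 in the Cre-labelled ones. The lowest library of the second group was well above the highest of the first. The difference was 7.72-fold (log2 fold change 2.95, SE 0.47, edgeR adjusted p = 0.00271), the second widest of the 10. Of the 1047 stretches of 75 bases in Klk1 transcripts, 12.1% occur unchanged in Klk1b genes, and its counts are uncertain to that extent. Those copies had few reads themselves. The 12 copies found summed to 3.11 to 8.30 normalized CPM in the control-labelled libraries and 11.1 to 12.8 in the others. Of 9 tested, 4 were higher and 5 did not pass (21.3% of all genes were higher). The 4 were Klk1b16 (6.99-fold), Klk1b9 (3.47-fold), Klk1b22 (4.84-fold) and Klk1b5 (2.63-fold, a call lost in 3 of the 6 fits that left out a library). The effect of shared sequence on the counts of these copies was not tested either. Of the other genes, Atp2b1 shared 0.474% of its stretches and the rest shared 0.

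**Figure D2:**
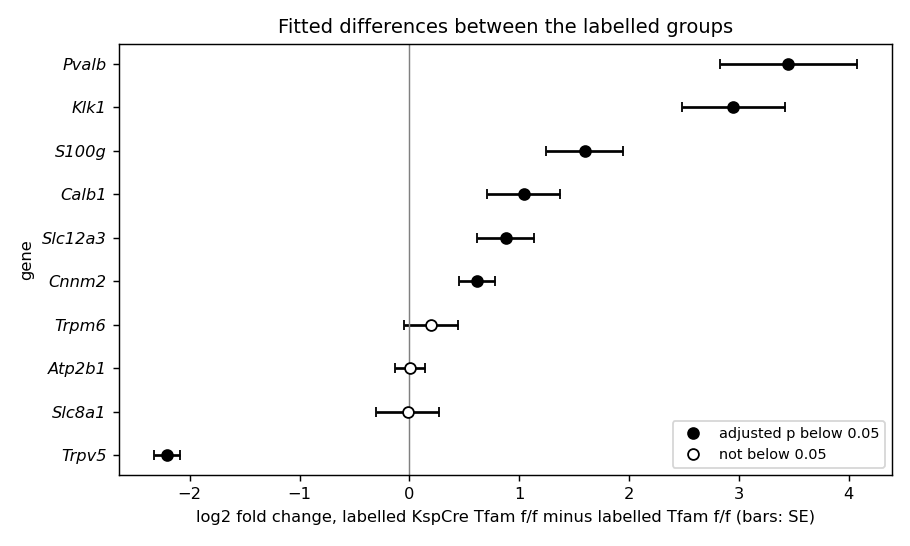
Log2 fold change of each gene between the labelled groups (points) with its standard error (bars), filled where the edgeR adjusted p is below 0.05. Pvalb (3.45) and Klk1 (2.95) stand at one end, Trpv5 (-2.21) at the other, and Trpm6, Atp2b1 and Slc8a1 near 0.

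The groups did not overlap for 6 higher genes and 1 lower gene of the 10. Among all tested genes, 29.8% were higher and 32.1% lower without overlap, 61.9% in all. The summed level of the 10 genes was 2179, 2843 and 1542 normalized CPM in control-labelled replicates 1, 2 and 3 and 5872, 6162 and 5145 in the Cre-labelled ones. The ratio of the group means was 2.62 (two-sided exact permutation p = 0.1, the smallest that 3 against 3 libraries can give). Klk1 and Slc12a3 make up most of this sum, so it says little of the weaker genes.

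Per length, the order of the genes changed between the groups. Levels between genes are given here as mean normalized CPM per kilobase of exon, which depends on the annotated exon length. In the control-labelled libraries the order was S100g (374 ± 167), Klk1 (289.8 ± 158), Slc12a3 (98.9 ± 28.6), Trpv5 (49.99 ± 1.90), Calb1 (48.6 ± 21.3), Atp2b1 (5.74 ± 0.981), Cnnm2 (5.29 ± 1.15), Trpm6 (3.51 ± 0.991), Slc8a1 (2.98 ± 1.26) and Pvalb (1.54 ± 1.4998). Neighbours that differed by less than the larger of their SDs were S100g and Klk1, Trpv5 and Calb1, Atp2b1 and Cnnm2, Trpm6 and Slc8a1, and Slc8a1 and Pvalb. In the Cre-labelled libraries the order was Klk1 (2237 ± 185), S100g (1129 ± 130.4), Slc12a3 (182 ± 17.3), Calb1 (100.1 ± 12.6), Pvalb (17.9 ± 2.49), Trpv5 (10.8 ± 1.26), Cnnm2 (8.12 ± 0.732), Atp2b1 (5.76 ± 0.216), Trpm6 (4.01 ± 1.01) and Slc8a1 (2.95 ± 0.449). There, the means of all neighbours differed by more than the larger SD, Trpm6 and Slc8a1 by the least. Trpv5 stood level with Calb1 in the first group and far below it in the second.

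Relative to Slc12a3 in the same library, the other 9 genes moved by unequal amounts, a measure that does not depend on how libraries are scaled. Klk1 belongs to the connecting tubule and Atp2b1 is found in many cell types, so a ratio can compare different cells. Trpv5 stood at 16.2%, 10.8% and 19.7% of the Slc12a3 CPM in control-labelled replicates 1, 2 and 3 and at 1.89%, 1.60% and 1.72% in the Cre-labelled ones. Klk1 went from 38.7%, 30.1% and 13.8% to 116%, 119.7% and 122%. Pvalb went from 0.135%, 0.226% and 0.0244% to 0.804%, 0.990% and 0.973%. In log2 the difference of the mean ratios, Cre-labelled minus control-labelled, was -3.13 for Trpv5, 2.24 for Klk1, 3.34 for Pvalb and 0.81 for S100g. It was -0.72 for Trpm6, -0.85 for Slc8a1, -0.89 for Atp2b1 and -0.27 for Cnnm2. For these 8 genes the exact permutation test gave p = 0.1, again the smallest possible, and 0.113 adjusted over the 9 ratios. Calb1 had overlapping ratios, with 26.7%, 22.1% and 14.2% against 25.5%, 23.4% and 23.0% (log2 difference 0.24, exact permutation p = 0.6). The ratio of Pvalb was 10.1-fold higher, but 5.26-fold without control-labelled replicate 3, the library with 5 Pvalb counts, and 15.999-fold without control-labelled replicate 2. The log2 difference for Calb1 was -0.02 without control-labelled replicate 3 and 0.43 without control-labelled replicate 1.

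**Figure D3:**
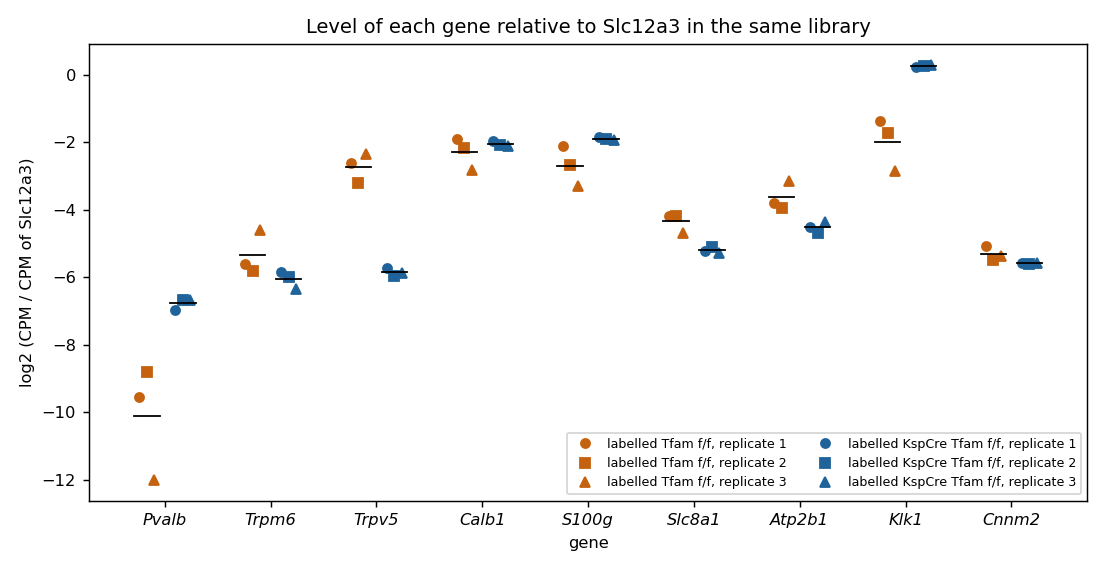
Log2 ratio of each gene's CPM to that of Slc12a3 in the same library, 1 symbol per replicate, with a line at each group's mean. Klk1 lies above the Slc12a3 level (log2 ratio 0) only in the Cre-labelled libraries, Trpv5 is lower there (difference -3.13), and the Calb1 groups overlap.

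Within the control-labelled libraries, most of the 10 genes ranked the libraries alike. Replicate 2 was highest and replicate 3 lowest for 7 of the 10 genes (Slc12a3, Pvalb, Calb1, S100g, Slc8a1, Klk1 and Cnnm2), an order shown by 21.7% of all tested genes. Trpm6, Trpv5 and Atp2b1 were highest in replicate 3, as were 37.5% of all tested genes. In the Cre-labelled libraries, replicate 3 was lowest for 8 of the 10 genes, against 32.0% of all.

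Tubular injury and macrophage markers moved with the groups and with the libraries. For scale, 21.3% of all genes were called higher and 24.9% lower. The injury markers Havcr1, Lcn2, Krt8, Krt18, Vcam1, Sox9 and Spp1 were lower in 7 of 7 cases. Their summed level was 5899.8, 3081 and 13134 normalized CPM in control-labelled replicates 1, 2 and 3 and 821 to 883 in the Cre-labelled ones. Macrophage markers were lower in 8 of 9 cases, with sums of 283, 183 and 591 against 138 to 151. Proximal tubule markers were higher in 7 of 7, with sums of 5385, 8885 and 2152 against 16603 to 18218. That count was 0 without control-labelled replicate 1 and 1 with any 1 Cre-labelled library left out. With no filter on low counts it was 1, and 3 macrophage markers were called. Mural cell markers were higher in 3 of 6, with 174 to 193 against 223 to 260.4. Scaling by total counts alone gave 1 mural marker higher and 2 lower. The call of Cspg4, 1 of the 3, was lost in 4 of the 6 fits that left out a library. Of 5 endothelial markers, 0 passed in edgeR (1 at an unadjusted p under 0.05), with 121 to 245 against 215 to 219. Without control-labelled replicate 2, 5 endothelial markers were higher. Of 4 thick ascending limb markers, 2 were higher and 1 was lower (sums of 2638 to 3724 against 6873 to 7077), and of 5 intercalated cell markers 4 were higher and 1 was lower (137 to 199 against 322 to 343). None of the markers of these 7 lists was at 0 in all libraries. The part of these cells and states in the differences of the 10 genes was not tested.

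Other genes of the pathway were read from 7 lists, also chosen with earlier results known. They held 76 genes besides the 10, of which 72 were tested. Of these, 23 (31.9%) were higher, 19 (26.4%) lower and 30 did not pass, against 21.3% higher and 24.9% lower among all genes. Scaling by total counts alone turned this to 14 higher and 28 lower. Their median log2 fold change was 0.17. It was 0.02 for calcium entry, buffering and exit, 0.57 for hormonal control, 0.14 for magnesium, -0.13 for the claudins, 0.18 for control of the cotransporter, 0.40 for distal convoluted tubule markers and -0.53 for principal cell markers, against -0.03 for all tested genes.

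Among 9 tested genes of calcium entry, buffering and exit, 0 were higher, 4 lower and 5 did not pass. The shares of all genes called were 21.3% higher and 24.9% lower. At an unadjusted p under 0.05 there were 6 of the 9 in either direction, and DESeq2 called 2 higher. Without control-labelled replicate 2, 3 were higher, and with any 1 Cre-labelled library left out 2 were lower. Trpv6, a second epithelial calcium channel, near Trpv5 on chromosome 6 (41620624 to 41636405), was lower like it. It had 11.2, 5.87 and 42.5 normalized CPM in control-labelled replicates 1, 2 and 3 and 1.60, 2.15 and 1.49 in the others, an 11.2-fold difference (edgeR adjusted p = 0.0082). Unlike Trpv5 it spread widely in the first group, and without control-labelled replicate 3 the log2 fold change was -2.27 in place of -3.48. With no filter on low counts its adjusted p was 0.0662, the highest over its alternatives. Calm2, one of the calmodulin genes, was 1.82-fold lower. Anxa2 (1.90-fold lower) and S100a10 (1.41-fold lower) encode the partners of a complex known to bring TRPV5 to the cell surface. The call of Anxa2 was lost with any 1 Cre-labelled library left out (adjusted p 0.0542 to 0.0638), and that of S100a10 also without control-labelled replicate 1 (0.073).

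Of 9 hormonal control genes tested, 5 were higher, 1 was lower and 3 did not pass (21.3% higher and 24.9% lower among all genes). Pth1r, the parathyroid hormone receptor, was 2.84-fold higher (edgeR adjusted p = 0.00243) and Vdr, the vitamin D receptor, 2.11-fold (0.00247). Its partner Rxra was 1.87-fold higher, and Kl, which encodes klotho, 2.58-fold. Kl lost its call without control-labelled replicate 1 (0.104) or with Cre-labelled replicate 1, 2 or 3 left out (0.0767, 0.0816 and 0.072). Leaving out any of those Cre-labelled libraries left 3 genes of the list higher. The fifth, Cyp24a1, which breaks down active vitamin D and was named after its values were seen, was 1.48-fold higher. Cyp27b1, which makes active vitamin D, was 4.67-fold lower, with 14.8, 4.74 and 42.7 normalized CPM in control-labelled replicates 1, 2 and 3. In the Cre-labelled ones it had 6.86, 3.33 and 2.90. Its call was lost when any library other than control-labelled replicate 2 was left out, and without replicate 3 of that group the log2 fold change was -1.13 in place of -2.22 (adjusted p = 0.112, and up to 0.2 with no filter on low counts). Pth1r, Kl, Cyp27b1 and Cyp24a1 are also expressed in the proximal tubule. Of its 7 markers, 7 were called higher, and 0 without control-labelled replicate 1. The part of the proximal tubule in the differences of these genes was not tested.

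Of 22 magnesium genes tested, 8 were higher, 4 lower and 10 did not pass (21.3% higher and 24.9% lower among all genes). Without control-labelled or Cre-labelled replicate 1, 5 were higher. With scaling by total counts alone, 4 were higher and 9 lower. Egf, whose product stimulates TRPM6, had the widest difference. Its level was 134, 312 and 39.0 normalized CPM in control-labelled replicates 1, 2 and 3 and 2598, 2779 and 2626 in the others. The difference was 16.5-fold (edgeR adjusted p = 0.00387). It was 11.9-fold without control-labelled replicate 3 and 31.0-fold without control-labelled replicate 2. Pcbd1 was 2.14-fold higher, Magt1 2.00-fold and the magnesium transporter gene Slc41a2 1.66-fold. Lower were Rragd (2.26-fold), a GTPase gene mutated in a magnesium-losing tubulopathy, Ptp4a1 (2.10-fold) and Ptp4a2 (1.58-fold), whose phosphatases bind CNNM proteins, and Slc41a3 (1.64-fold). The call of Slc41a3 was lost in 3 of the 6 fits that left out a library. Exons of Egf overlap genes on the other strand over 1107 bases. Claudin genes that affect calcium and magnesium passage in the thick ascending limb split, with Cldn16 (2.92-fold) and Cldn10 (2.00-fold) higher and Cldn19 (2.39-fold) lower. Cldn14 was also lower, at 0.982 ± 0.39 against 0.0394 ± 0.0488 normalized CPM (SD, n = 3 each), levels of few reads.

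**Figure D4:**
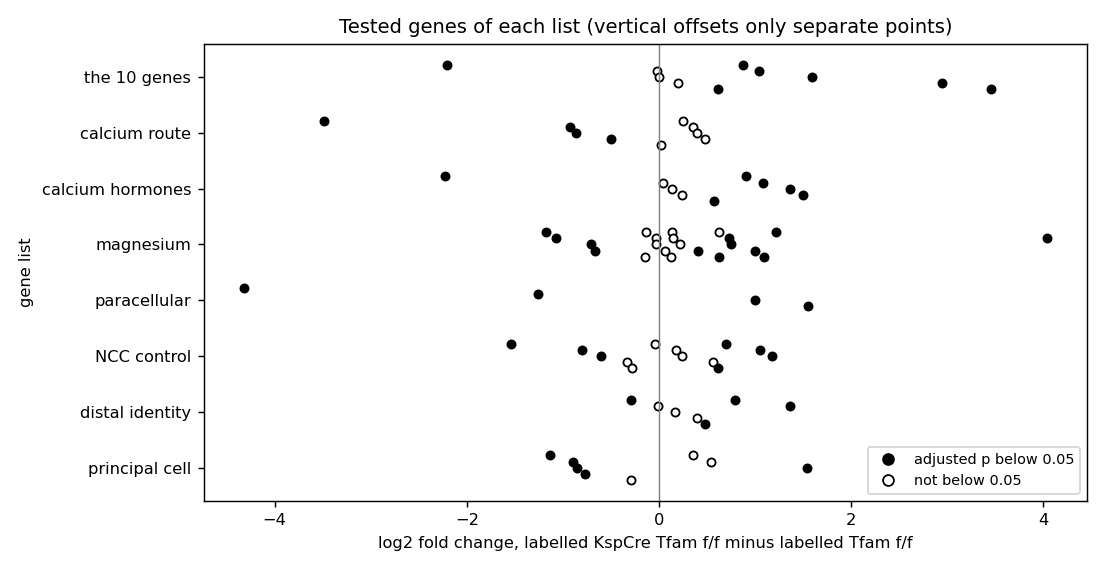
Log2 fold change of every tested gene in the 10-gene set and the 7 pathway lists, filled where the edgeR adjusted p is below 0.05 (NCC is the cotransporter encoded by Slc12a3). Each list holds genes on both sides of 0, with Egf (4.04) and Cldn14 (-4.32) farthest out.

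Genes acting on the Slc12a3 cotransporter also went both ways, with 4 of 13 higher, 3 lower and 6 not passing, against 21.3% higher and 24.9% lower among all genes. The balance depended on the method, with 5 lower by upper-quartile scaling, DESeq2 or limma voom, and 2 higher and 6 lower by total counts alone. Stk39, the kinase that phosphorylates the cotransporter, was 2.90-fold lower (edgeR adjusted p = 0.000234), at 134, 113 and 150.1 normalized CPM in control-labelled replicates 1, 2 and 3 and 46.6, 48.1 and 42.0 in the others. Its groups were far apart, in the direction opposite to Slc12a3. The upstream kinase gene Wnk1 was 2.08-fold higher. Klhl3 (2.26-fold) and Cul3 (1.54-fold), the parts of the ubiquitin ligase that removes WNK kinases, were higher, and so was the kinase gene Sgk1 (1.62-fold). Hsd11b2, which protects the mineralocorticoid receptor, was 1.74-fold lower. Leaving out single libraries ended the calls of Klhl3 (1 of 6 fits) and Sgk1 (2 of 6).

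Markers of the segment outside the 10 genes moved less than Pvalb. Of 7 distal convoluted tubule markers, 3 were higher, 1 lower and 3 did not pass (21.3% higher and 24.9% lower among all genes). Abca13 was 2.57-fold higher, or 2.03-fold without control-labelled replicate 3 and 3.86-fold without control-labelled replicate 2. The transcription factor genes Emx1 and Sall3 were 1.73-fold and 1.40-fold higher, while Tfap2b was 1.23-fold lower. Each of these calls was lost in 3 to 5 of the 6 fits that left out a library, and that of Tfap2b also by DESeq2 (adjusted p = 0.0581). Without Cre-labelled replicate 1, 1 marker of the list was higher, and without replicate 2 or 3 of that label 0 were. Among 8 principal cell markers, which also serve the connecting tubule, 1 was higher, 4 were lower and 3 did not pass. Gata3 (2.20-fold lower), the sodium channel genes Scnn1b (1.86-fold) and Scnn1g (1.71-fold) and the vasopressin receptor gene Avpr2 (1.80-fold) were lower, like Trpv5, though Scnn1g lost its call in 3 of the 6 fits. Aqp4, a water channel gene, was 2.90-fold higher, a call lost in 3 of the 6 fits.

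Genes close in pattern to each of the 10 were looked for among other tested genes. Likeness was measured over the 6 libraries as the root mean square difference in log2 CPM, with 0.5 CPM added and each gene centred on its mean. Ranks are among 11318 genes whose mean log2 CPM reached 2, with predicted genes, clone-named genes and pseudogenes left out by their symbols. Closest to Slc12a3 was Ehd3 (0.02), to Calb1 Mroh7 (0.05), to S100g Nlrp6 (0.10), to Klk1 Mep1b (0.12), to Pvalb Pde6a (0.14) and to Cnnm2 Timm29 (0.05). Closest to Trpv5 were Kif26b (0.12), Aldh1a2 (0.13) and Camk1d (0.14). Trpm6 was closest to Chst1 (0.14), Slc8a1 to Gpt2 (0.11) and Atp2b1 to Ifih1 (0.02). Among the 10 themselves, Pvalb and Klk1 were near each other (0.31, ranks 15 and 17 in each other's order), Slc12a3 was nearest to Cnnm2 (0.19, rank 538), and the nearest to Trpv5, Atp2b1, lay at 1.12 (rank 5598).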

How the data were processed

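Polyadenylated RNA of whole kidneys was sequenced as pairs of 150 bases in strand-specific libraries, per the labels' protocols. Each library has 1 deposited file with the authors' read counts for every gene, not normalized. The tools used, per the submitters' processing notes, include STAR 2.4.1d, HTSeq 0.11.0, FastQC and Trim Galore, with mm10 as the build. Strand setting and annotation release: not given in the sources used here. The 5 summary lines of each file (16.0% to 20.4% of its reads, including those aligned to several places) were left out.

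The test was run in edgeR 4.0.16 (R 4.3.3): filterByExpr (minimum count 10, minimum total 15), TMM factors and the quasi-likelihood test with robust estimation, Benjamini-Hochberg adjusted over 17308 genes and called below 0.05. Each standard error is the absolute log2 fold change over the square root of F. CPM used the same factors. The procedure was tested on simulated data, where it missed the first target set for recovery. That target was then lowered, so the test is not used here to vouch for any call. Positions and exon lengths are from GENCODE M21 (54079 of 54146 identifiers found without their version) and promoters from RefSeq.

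The members and the 16 gene lists were chosen with earlier results of these data known. The text names all 10 genes, up to 4 called genes per list and direction by p, and the 3 closest in pattern (a part printed). Some results that the rule would name are not reported here. Replicates may be technical, since the labels do not say that they are separate animals, and p-values then reflect no more than the spread among these 6 libraries. Replicate pairs differed beyond sampling noise (chi-square per degree of freedom 7.04 to 163). Alternatives were other scalings and filters, DESeq2 1.42.0, limma voom 3.58.1, a replicate block and leaving out each library.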

Additional observations from a re-analysis of the deposited data

How the results depend on the processing

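Trpv5, Pvalb, S100g and Klk1 kept their direction and call in all 14 alternatives, and Trpm6 and Slc8a1 were called in none. Scaling by total counts alone shifted the median log2 fold change of all genes by -0.43, and values under it are read relative to that. It gave 1680 genes called higher and 8519 lower (3690 and 4310 with TMM; 16.5% of calls higher in place of 46.1%), 3 of the 10 genes higher and 2 lower, and 14 pathway genes higher and 28 lower (23 and 19 with TMM). Its log2 fold changes were 0.47 for Slc12a3, 0.64 for Calb1, 0.20 for Cnnm2, -0.25 for Trpm6 and -0.43 for Atp2b1 (adjusted p = 0.0391), and the log2 ratio of the summed level was 0.98 (1.39 with TMM). With no filter on low counts (29427 genes tested) Calb1 stood at 1.05 and was not called. Leaving out each library gave 2276 to 4652 genes called higher and 2822 to 4942 lower, 3 to 6 of the 10 genes higher, and 14 to 29 pathway genes higher and 12 to 20 lower. Log2 fold changes then ranged from 0.72 to 1.16 for Slc12a3, 0.73 to 1.35 for Calb1, 0.45 to 0.78 for Cnnm2, -0.28 to 0.36 for Slc8a1 and -0.11 to 0.10 for Atp2b1. Near 0, Slc8a1 changed sign to 0.00202 with RLE scaling, 0.00329 with DESeq2, 0.0583 with limma voom and 0.0601 with the replicate block, and Atp2b1 to -0.0716 with upper-quartile scaling and -0.00671 with CPM above 1 in 3 libraries. With the replicate block the 10 genes gave 6 higher and 1 lower, as without it. Same-numbered libraries did not deviate together (correlations -0.22, -0.07 and -0.06), and differently numbered ones gave -0.10 to 0.27. With 3 libraries per group these values cannot show whether same-numbered libraries were prepared together. The cause was not tested for any of these changes. The lowest count among the 10 genes was 5, for Pvalb in 1 library, and the groups' unequal depth was not tested.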
